A study of Andrographis paniculata with 12 samples.

Results

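The change described here is the one between 24 h and 48 h after the start of methyl jasmonate (MeJA) treatment in the leaves of a medicinal plant, Andrographis paniculata, which is known for bitter diterpene lactones. Its members were 6 of the 12 leaf samples in the series, 3 biological replicates labelled T24 and 3 labelled T48, and the comparison was made over 29399 of the 32064 assembled genes, those whose level reached 1 at any of the times 0, 12, 24 and 48 h. Every leaf of both groups had been treated with MeJA, and the T0 leaves stand for the start of treatment. No untreated leaves taken at 24 h or 48 h are among the samples, so the time since treatment and the time of sampling cannot be told apart. The labels give neither the dose nor the age of the plants nor the clock times. Strand-specific paired-end sequencing of mRNA gave the data.

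MeJA is the volatile methyl ester of jasmonic acid, the hormone with which plants answer chewing insects and wounding. The active form, jasmonoyl-isoleucine, leads to the destruction of TIFY (JAZ) repressors, which frees MYC transcription factors to switch on defence genes. Jasmonate also makes its own synthesis and its own brakes rise, and it holds back growth. Defence products such as protease inhibitors last for days, whereas many of the signalling genes are only briefly switched on.

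The deposited table holds 1 value per gene and time, which is the authors' mean of the replicates. No spread between replicates and no depth can be read from it, so no test was possible and a rule of size was used: a gene is said to have risen or fallen where log2(level + 1) at 48 h differed from that at 24 h by 1 or more, which is 2-fold. The unit of the level is a normalised expression level whose name (TPM, FPKM or another) is not given in the sources used here. Whether a difference exceeds the variation between plants was not tested for any gene. Names are those of the most similar Swiss-Prot protein in the authors' table and state likeness, not identity. An identifier such as TR82349|c3_g1 stands for 1 assembled gene, and the text before _g for the assembled component, whose pieces may share reads. Where 4 levels of a gene follow each other, they are those of 0, 12, 24 and 48 h in that order. These are whole-leaf values, in which fewer cells of a type and less RNA per cell cannot be told apart.

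Between 24 h and 48 h 694 genes rose, 2.36% of those measured, and 1324 fell, 4.50% of those measured. The median difference over all 29399 genes was -0.10 on the log2 scale, with quartiles of -0.36 and 0.13. Counted in either direction, 6.86% of the genes passed 2-fold. The share was 21.7% from 12 h to 24 h and 30.3% from 0 h to 24 h, comparisons that share the 24 h column with this one. By the labelled hours, 24 h and 48 h lie a whole day apart, as do 0 h and 24 h. The 12 h leaves do not, so comparisons with them are shorter or may also differ in time of day, which was not tested. Scaling the columns by their median ratio moved the median of all genes to 0 and turned the split into 858 higher and 1039 lower, so that the share of risers among the changed genes was 45.2% in place of 34.4%. Differences of single genes and lists are therefore best read against the overall median of -0.10. Of the 78 genes with a mean level of 1000 or more, 7 rose and 3 fell, or 8.97% and 3.85%. Among genes with a mean level of 10 or more, 160 rose and 394 fell, and 111 of those risers and 254 of those fallers had a Swiss-Prot name.

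**Figure D1:**
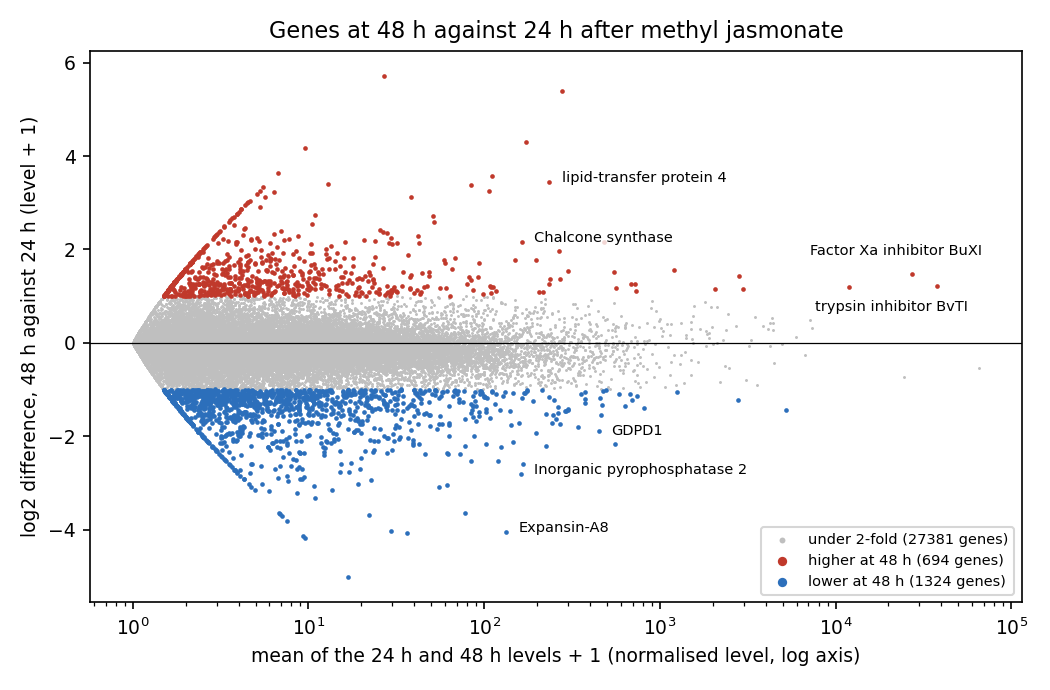
Each point is 1 of 29399 assembled genes, with the mean of its 24 h and 48 h levels plus 1 on a log axis and its log2 difference between 48 h and 24 h on the vertical axis. Red points are the 694 genes higher and blue points the 1324 genes lower by 2-fold or more. The 2 most abundant inhibitor genes lie at the far right above the line of 1.

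Proteins that enter the secretory route were frequent on both sides. Of the genes with a predicted protein, a signal peptide was annotated for 14.8% of the 263 risers and 12.2% of the 622 fallers, against 7.75% of all 19462. Predicted membrane-spanning helices were annotated for 33.1% of the risers, 24.6% of the fallers and 24.4% of all. Only 37.9% of the risers and 47.0% of the fallers had a predicted protein at all, against 66.2% of the measured genes, so these shares cover a minority of the changed genes.

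Genes that answer phosphate starvation fell in larger share than the table as a whole. When phosphate is short, plants make transporters of the PHT1 class, secrete phosphatases, take phospholipids apart with phospholipase D and glycerophosphodiesterases, and make SPX proteins, which hold the response in check once phosphate returns. Of 89 measured genes with names known from this response in Arabidopsis, 24 fell, or 27%, and 2 rose. Their median difference was -0.38, and their summed level went from 6566 to 3490, after 1379 at 0 h and 3170 at 12 h. This list was drawn up after values had been seen, and 71 of its members also belong to a wider list on phosphate supply and phospholipids, in which 21 of 106 genes fell and 1 rose. The numbers come from 74 assembled components and stood at 21 lower and 2 higher with the columns scaled by their median ratio.

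Among the genes of signalling and of phosphate release, Inorganic pyrophosphatase 2 (TR82349|c3_g1), a small phosphatase that phosphate starvation induces in Arabidopsis, had levels of 1.36, 4.46, 283 and 39.2, a fall of 7.21 times and a log2 difference of -2.82. Its level was thus high at 24 h alone and still lay above those at 0 h and 12 h at 48 h. SPX domain-containing protein 3 (TR18287|c0_g1), whose Arabidopsis namesake is a marker of low phosphate, stood at 9.77, 8.51, 103 and 18.9 at the 4 times, a difference of -2.38. Both measured genes named for SPX domain-containing proteins 1 to 3 fell, and together they went from 413 to 99.2. Phosphoenolpyruvate carboxylase kinase 1 (TR73017|c0_g2), which activates the carboxylase that feeds organic acid synthesis, had 37.7, 321, 285 and 46.5, a difference of -2.59, and unlike the others was already high at 12 h.

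The genes of lipid turnover followed the same course over the 4 times. Phospholipase D p1 (TR26405|c0_g1), which removes head groups from membrane phospholipids, had levels of 3.59, 2.24, 121 and 22.3, a difference of -2.39. GDPD1 (TR61771|c1_g1), a plastid enzyme that releases glycerol-3-phosphate from deacylated phospholipids, had 12.1, 37.6, 706 and 189, a difference of -1.90. A glycerol-3-phosphate transporter (TR47267|c0_g1) had 79.4, 51.5, 421 and 153, a difference of -1.46. In each of these 3 genes the level at 48 h lay below that at 24 h but above those at 0 h and 12 h. Over the whole families, the 6 GDPD genes summed to 874 at 24 h and 276 at 48 h with 2 members lower, and the 6 phospholipase D p1 genes to 215 and 50.3, also with 2 lower.

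The PHT1 transporters, which carry phosphate into cells, did not all go one way. Of 8 measured, 5 fell and 1 rose. The gene most like transporter 1-4 (TR61804|c0_g1) had 0.0767, 0.379, 9.69 and 0.186. TR38474|c0_g1, most like transporter 1-3, was listed at 0 at 0 h and had 0.699, 14.9 and 1.11 at the later times. TR71205|c0_g1, most like transporter 1-7, went from 10.8 at 24 h to 0.896 at 48 h. These 3 genes were near 0 at every time but 24 h. A further gene most like transporter 1-4 (TR85264|c2_g1) did the reverse, with 73.9, 35.3, 25.9 and 90.4, a rise of 3.49 times and a log2 difference of 1.76.

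Other members of the list stayed under 2-fold. Inorganic pyrophosphatase 1 (TR61981|c5_g1) had 1847 at 24 h and 1151 at 48 h, a difference of -0.68. Purple acid phosphatase 26 (TR74651|c6_g2), a vacuolar and secreted phosphatase, had 295 and 391, a difference of 0.41, after 7.66 at 0 h and 706 at 12 h. Of the 28 purple acid phosphatases 5 fell and none rose, with a median of -0.04, and none of the 7 genes named for the phosphate exporter PHO1 passed 2-fold. The second riser of the list was a pyrophosphatase 1 piece (TR4995|c0_g1) listed at 0 at 24 h and at 1.46 at 48 h.

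**Figure D2:**
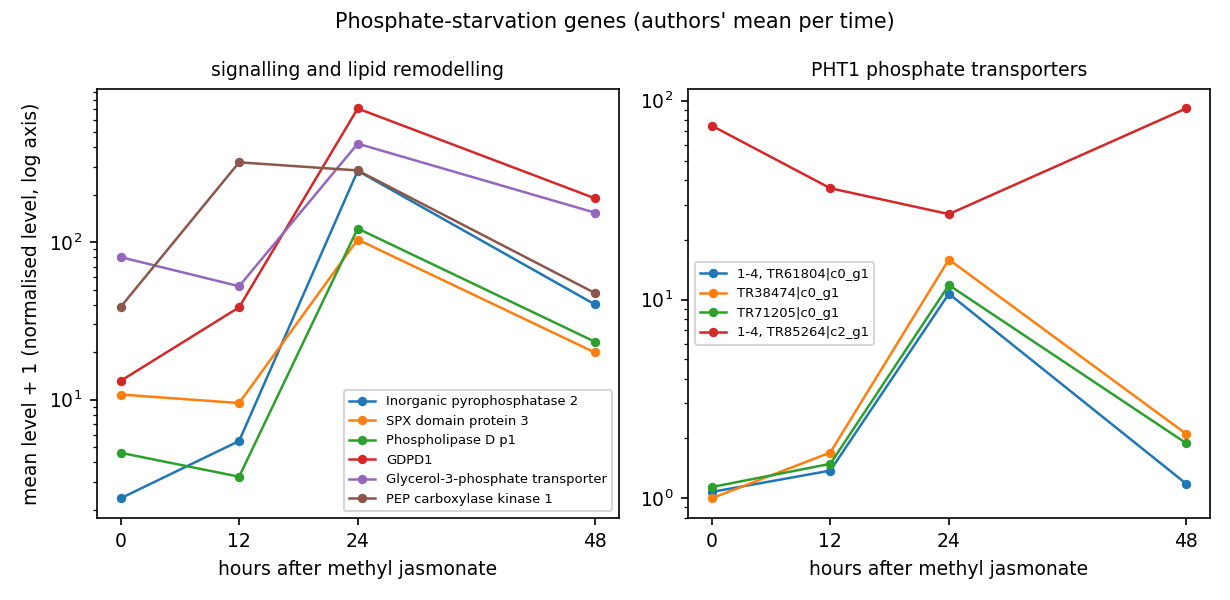
Levels plus 1 on a log axis at 0, 12, 24 and 48 h, 1 authors' mean per time with no error available. On the left, 6 genes of signalling and lipid turnover stood at 103 to 706 at 24 h and at 18.9 to 189 at 48 h. On the right, 3 PHT1 transporters peaked at 24 h at 9.69 to 14.9, and TR85264|c2_g1 was lowest then, at 25.9.

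Genes of cell expansion and auxin response also fell. Auxin drives the elongation of young cells through short-lived SAUR proteins, while Aux/IAA proteins repress the response and are themselves made in answer to auxin. Of 52 SAUR-like genes 17 fell, or 32.7%, and none rose, with a median of -0.56. The list's summed level was 4173, 504, 624 and 366. The genes come from 37 components but resemble only 6 different Swiss-Prot proteins, and with 1 gene kept for each of these, 1 was lower and none higher.

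The range is shown by 3 SAUR-like genes. Auxin-induced protein 15A from TR81280|c1_g1 had 1033, 13.8, 149.6 and 52.6 at 0, 12, 24 and 48 h, a difference of -1.49. A second piece of that component (TR81280|c1_g3) had 658, 7.42, 24.3 and 4.03, a difference of -2.33. TR44275|c1_g1, from another component, had 199, 0.801, 12.8 and 1.21, a difference of -2.64. Each was highest before treatment, recovered in part at 24 h and was low again at 48 h. Auxin-induced protein X10A (TR77694|c0_g2) is among the exceptions, with 70.8 at 24 h and 85.7 at 48 h, a difference of 0.27.

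In the list of Aux/IAA repressors, auxin response factors and auxin transport genes, 15 of 98 fell, or 15.3%, and none rose, with a median of -0.34. The Aux/IAA genes made up 7 of the fallers out of 36 measured, and their summed level went from 1543 to 1051. The repressor AUX22 (TR15737|c1_g3) had 156, 10.2, 47.5 and 12.7, a difference of -1.83. IAA14 (TR32361|c7_g1), which holds back lateral root formation in Arabidopsis, had 1186, 52.8, 198 and 113, a difference of -0.81 that did not reach 2-fold. Auxin efflux carrier component 3 (TR26927|c6_g4), a PIN protein that directs auxin out of cells, had 84.2, 11.5, 16.6 and 4.86, a difference of -1.59. Of the 9 PIN genes 3 fell, and of the 35 auxin response factors 1 fell.

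Expansins loosen the cell wall, and xyloglucan enzymes cut and rejoin the chains that tie cellulose together. Of the 73 genes in this list 19 fell, or 26.0%, and 2 rose, and its summed level was 4107, 1472, 797 and 319 at the 4 times. Expansins account for 12 of the fallers and both risers. Expansin-A8 (TR86988|c3_g1) had 1000.2, 79.1, 251 and 14.1, a fall of 17.8 times since 24 h and a difference of -4.06. Expansin-A15 (TR24021|c0_g1) had 149, 619.9, 68.5 and 14.5, a difference of -2.17, and Expansin-A5 (TR86988|c3_g2) had 222, 80.0, 38.9 and 10.0, a difference of -1.85. All 3 were at their lowest at 48 h. The risers were faint: Expansin-A13 (TR74081|c0_g2) went from 0.258 to 4.69 and Expansin-B15 (TR65075|c0_g1) from 0.261 to 1.96.

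Wall synthesis and water channels gave fewer calls. Of 181 genes for cellulose and pectin 14 fell and 7 rose, or 7.73% and 3.87%. COBRA-like protein 1 (TR15719|c1_g1), a membrane-anchored protein needed for ordered cellulose deposition in Arabidopsis, had 11.5, 148, 54.7 and 2.38, a difference of -4.04. The pectate lyases, which cut pectin, fell in 4 of 29 genes, among them TR42282|c0_g1 from 7.13 to 0.346 and TR80037|c0_g1 from 5.92 to 0.306. None of the 20 cellulose synthase A genes passed 2-fold, and the one with the highest level (TR44309|c6_g2) had 819.6 and 416, a difference of -0.98. Of the 19 plasma membrane aquaporins 2 fell: PIP2-7 (TR44285|c0_g1) had 511, 38.5, 45.6 and 8.08, and PIP2-6 (TR57568|c0_g1) had 395, 36.3, 52.2 and 12.2.

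**Figure D3:**
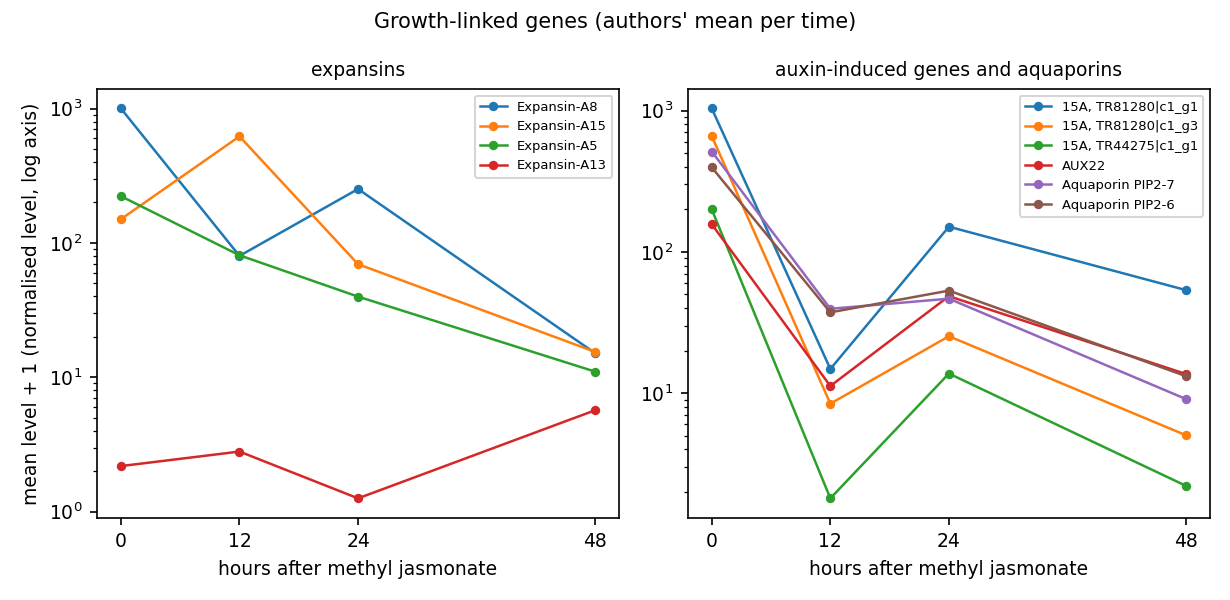
Levels plus 1 on a log axis at 0, 12, 24 and 48 h for 4 expansins and for 6 auxin-induced genes and aquaporins, 1 authors' mean per time. Expansins A8, A15 and A5 ended at 10.0 to 14.5 at 48 h, and A13 rose from 0.258 to 4.69. The 6 genes on the right were all lower at 48 h than at 24 h.

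**Figure D4:**
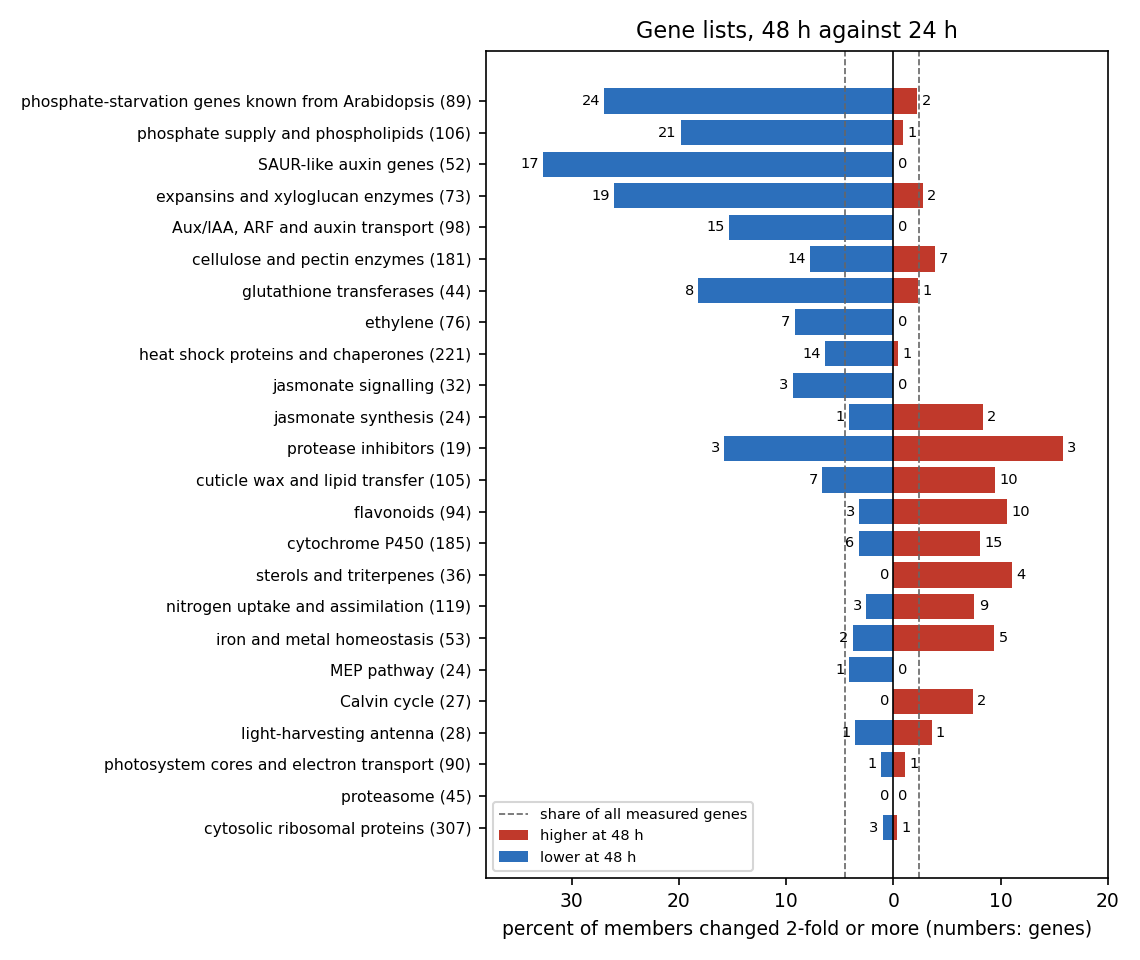
Bars give the percent of each list's measured members (number in brackets) that rose (red) or fell (blue) by 2-fold or more between 24 h and 48 h, with the number of genes beside each bar. Dashed lines mark 2.36% higher and 4.50% lower, the shares over all measured genes. The SAUR-like list reaches furthest to the left with 32.7%, followed by the phosphate-starvation and the expansin lists.

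The pair of protease inhibitors with the highest levels went on rising. Kunitz-type inhibitors block the digestive proteases of insects and are a classical product of the jasmonate response. Trypsin inhibitor BvTI (TR34236|c2_g2) had 17.0, 7234, 22771 and 52772, a rise of 2.32 times and a difference of 1.21. Factor Xa inhibitor BuXI (TR83819|c4_g1) had 16.3, 11976, 14436 and 40279, a rise of 2.79 times and a difference of 1.48. Together these 2 genes held 0.00384%, 1.97%, 3.85% and 9.98% of the summed level of the table at the 4 times.

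The other inhibitors were divided. Of 19 protease inhibitor genes 3 rose and 3 fell, or 15.8% each way, although the summed level of the list went from 46884 to 100748. Of the 9 Kunitz-type genes among them 3 rose and 1 fell, with a median of 0.35. Sporamin A, a storage protein of sweet potato that inhibits trypsin, was the name of TR45313|c4_g1, with 6.76, 11365, 4643 and 2484, and of TR45313|c4_g2, with 0.00300, 1054, 236 and 53.3. The second of these fell by 2-fold or more with a difference of -2.13, and summed over the component the difference was -0.94. The Glu S.griseus protease inhibitor (TR52219|c0_g1) had 0.572, 536, 504 and 242, a difference of -1.06, which came to -0.92 after median-ratio scaling. Miraculin (TR44291|c4_g3) had 1269 and 1725 at 24 h and 48 h, and the alpha-amylase/subtilisin inhibitor (TR83819|c4_g2) 1742 and 2219, both under 2-fold. The third riser was a second Miraculin gene (TR27840|c0_g1) at a low level, with 12.1, 3.79, 2.73 and 7.01. The 6 cysteine proteinase inhibitors all had lower values at 48 h without reaching 2-fold, with a median of -0.32 against -0.10 over all genes. Their sum went from 945 to 701.

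In the jasmonate pathway, the genes that passed 2-fold were mainly lipoxygenases in synthesis and mainly repressors in signalling. Of all measured genes 2.36% rose and 4.50% fell. The 13-lipoxygenases, which start the pathway in the chloroplast, rose in 2 of 5 genes: lipoxygenase 3-1 (TR65609|c2_g1) had 4.72, 107, 19.7 and 54.2, a difference of 1.41, and lipoxygenase 2-1 (TR60361|c4_g2) had 62.8, 2498, 1849 and 4109.5, a difference of 1.15. A second piece of the latter component with that name (TR60361|c4_g4) went from 1165 to 809, and the 3 pieces summed gave a difference of 0.70, under 2-fold. Allene oxide cyclase 2 (TR76470|c1_g4), which makes the first ring-shaped precursor, had 435 and 437. In the whole synthesis list of 24 genes 2 rose and 1 fell, or 8.33% and 4.17%, with a median of -0.05. The faller was Jasmonate O-methyltransferase (TR50123|c1_g3), the enzyme that makes MeJA itself, with 0.210, 39.3, 12.0 and 4.83, and its 3 pieces summed to 32.7 at 24 h and 18.0 at 48 h, a difference of -0.83.

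On the signalling side, 3 of 32 genes fell, or 9.38%, and none rose, with a median of -0.34. Of the 20 TIFY repressors 18 had lower values at 48 h, and their summed level was 172, 5192, 4939.6 and 3457 at the 4 times. TIFY 9 (TR81360|c4_g2) had 0.977, 836, 661 and 325, and its second piece (TR81360|c4_g3) 0.0627, 48.6, 37.8 and 18.3, with differences of -1.02 and -1.01 that came to -0.88 and -0.87 after median-ratio scaling. TIFY 10A (TR47119|c4_g4) had 1311 and 992. Transcription factor MYC2 (TR78965|c1_g1), the main activator of jasmonate responses, had 32.5, 189, 208 and 227, a difference of 0.13. The third faller of the list was a MYC3 piece of the MYC2 component (TR78965|c1_g2), with 7.16 at 24 h and listed at 0 at 48 h. Cytochrome P450 94A2 (TR35519|c0_g1), of the family that oxidises jasmonoyl-isoleucine in Arabidopsis, had 0.470, 376, 233 and 114, a difference of -1.02 that came to -0.88 after that scaling.

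Genes of lipid transfer and of the cuticle gave several of the largest rises. The cuticle of the leaf surface is built from cutin, for which P450 enzymes of the 86A class hydroxylate fatty acids, and from waxes, for which ketoacyl-CoA synthases lengthen fatty acids and ECERIFERUM proteins make alkanes. Lipid-transfer proteins are small secreted proteins that bind lipids, and some of them act against microbes. Of 105 measured genes in a list without the P450 enzymes 10 rose, or 9.52%, and 7 fell, or 6.67%, so both shares lay above those of all genes. With a level of 10 or more required at some time, 6 rose and 6 fell, and with a pseudocount of 0.1 it was 12 and 17.

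The lipid-transfer proteins proper rose in 5 of 30 genes and fell in 2, and their summed level went from 8214 to 18185. Nearly all of that sum came from TR23777|c5_g8, with 6123, 8025, 7251 and 16559.9 at the 4 times, a difference of 1.19. Lipid-transfer protein 4 from TR83299|c5_g1 had 18.0, 80.9, 38.5 and 430.3, a rise of 11.2 times and a difference of 3.45. Another gene with that name (TR26984|c7_g3) had 1002, 78.9, 107 and 425, a difference of 1.98, and so regained part of a level lost at 12 h. The pEARLI1-like lipid transfer proteins, all 8 of them pieces of 1 component, fell in 3 cases, and TR73207|c14_g18 among them had 1243, 33.3, 30.1 and 8.34.

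Of the 9 genes named for P450 86A enzymes 6 rose and none fell. P450 86A4 (TR59700|c0_g1) had 8.52 at 0 h, was listed at 0 at 12 h and 24 h and had 7.26 at 48 h. P450 86A2 (TR12236|c0_g1) had 10.0 at 0 h, was likewise listed at 0 at 12 h and 24 h and had 7.08 at 48 h. ECERIFERUM 3 (TR42183|c0_g2), which takes part in alkane formation in Arabidopsis, had 0.647, 0.800, 0.166 and 9.10, a difference of 3.12. Of the 29 ketoacyl-CoA synthases 2 rose: number 10 (TR13802|c0_g2) had 7.92, 5.10, 13.4 and 69.2, and number 12 (TR61452|c0_g1) had 0.177, 0, 0.106 and 5.40. The other members stayed under 2-fold, and the family's sum was 1111 at 24 h and 1162 at 48 h. Fatty acyl-CoA reductase 2 (TR80732|c10_g3), which in Arabidopsis makes the fatty alcohols of the pollen wall, went the other way with 2.28, 2321, 1017 and 530.1, a difference of -0.94.

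A MYB factor and a lipase family had strong risers too. The Myb-related protein that Swiss-Prot lists as MYB06_ANTMA, MYB306 in the plot of rising genes, was the best hit of 13 genes, of which 5 rose and 1 fell. TR58096|c4_g1 had 5.26, 6.82, 12.5 and 88.1, a difference of 2.72. The pieces TR52716|c2_g1 and TR52716|c2_g2 had 10.9 and 6.89 at 24 h and 51.4 and 67.3 at 48 h, and summed they gave a difference of 2.67. In contrast, TR38537|c0_g2 of the same name had 1.67, 121, 93.7 and 45.6, a difference of -1.02 that came to -0.88 after median-ratio scaling. Among these 4, the gene with the highest level at 12 h was the one that fell. GDSL esterases are secreted lipases, and 2 genes named At1g29670 rose: TR18197|c1_g1 had 9.32, 41.1, 16.2 and 204, and TR12898|c0_g1 had 16.6, 46.8, 13.7 and 153, with differences of 3.58 and 3.38. In the whole GDSL list of 130 genes 6 rose and 9 fell, or 4.62% and 6.92%.

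Flavonoid enzymes had more risers than fallers. Chalcone synthase and chalcone isomerase build the flavonoid core, naringenin 3-dioxygenase and dihydroflavonol reductase lead on towards anthocyanins, and flavonoid hydroxylases decorate the rings. Of 94 measured genes 10 rose, or 10.6%, and 3 fell, or 3.19%. The list's median was 0.004, and its summed level went down from 8769 to 7235. With pieces of a component summed it was 7 higher and 3 lower, and with 1 gene per Swiss-Prot hit 5 higher and 2 lower.

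At the start of the route, chalcone synthase (TR69279|c0_g1) had 23.8, 12.7, 59.2 and 266, a rise of 4.49 times and a difference of 2.15. Phenylalanine ammonia-lyase (TR15417|c2_g2), which supplies the phenylpropanoid precursor, had 163, 84.3, 391 and 705, and chalcone isomerase (TR45801|c0_g4) 106, 66.8, 273 and 389, with differences of 0.85 and 0.51 that did not reach 2-fold. All 3 had their lowest level at 12 h and their highest at 48 h. Flavonoid 3',5'-hydroxylase (TR26978|c11_g9) had 23, 0, 7.72 and 38.4, a difference of 2.18, and Licodione synthase (TR77723|c4_g4), a P450 of the flavone type in licorice, 28.9, 2.0, 9.29 and 47.6, a difference of 2.24.

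The fallers include enzymes on the way to anthocyanins. Naringenin 3-dioxygenase (TR82302|c0_g1) had 17.2, 267, 139 and 34.3, a difference of -1.99. Dihydroflavonol-4-reductase (TR57391|c0_g1) had 2.76, 98.3, 29.1 and 11.9, a difference of -1.22. Both were highest at 12 h, when chalcone synthase was lowest. An Isoflavone reductase-like piece (TR13440|c4_g1) had the largest log2 difference among the named genes, from 0 to 51.7, but its neighbour in the component (TR13440|c4_g3) went from 2739 to 1928, and the 2 summed gave a difference of -0.47, in the other direction.

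**Figure D5:**
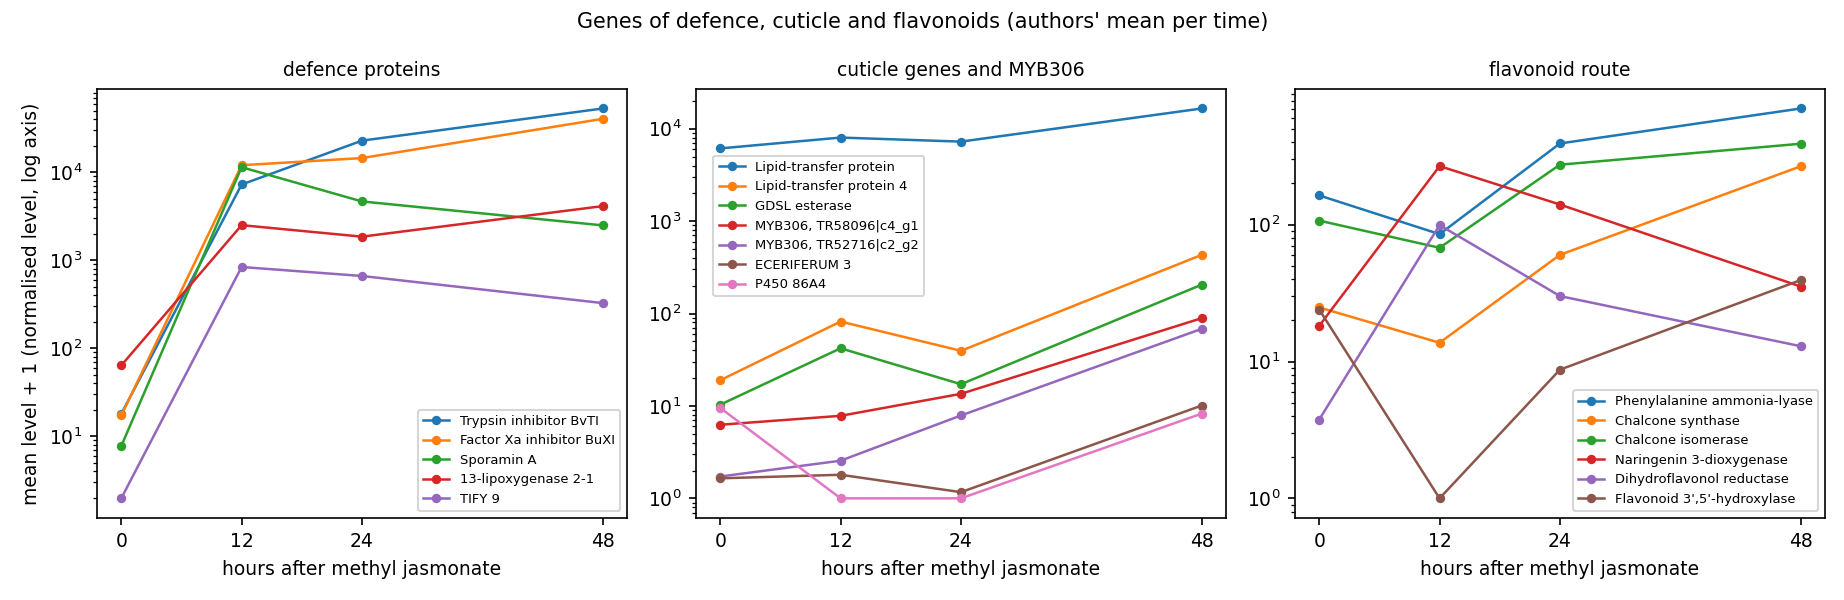
Levels plus 1 on a log axis at 0, 12, 24 and 48 h for genes of defence, of the cuticle with MYB306, and of the flavonoid route, 1 authors' mean per time. BvTI and BuXI ended at 52772 and 40279, while Sporamin A and TIFY 9 were lower at 48 h. Chalcone synthase reached 266 at 48 h, when naringenin 3-dioxygenase had come down from 267 at 12 h to 34.3.

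Photosynthesis lists had small median differences over this step, against -0.10 over all genes, of which 2.36% rose and 4.50% fell. Light-harvesting proteins gather light for the photosystems, and the Calvin cycle fixes carbon dioxide with Rubisco. Of 28 antenna genes 1 rose and 1 fell, or 3.57% each way, with a median of 0.12. Their sum was 36215, 1012, 5792 and 6449 at the 4 times. The photosystem and electron transport list had 1 riser and 1 faller among 90 genes, or 1.11% each way, and a median of -0.00. Antenna protein 21 (TR17188|c7_g3) had 10556, 363, 1085 and 1209.6, and the one antenna riser (TR73509|c0_g1) 415, 6.73, 131 and 278. At 48 h both lay below their level before treatment, the first by far the more.

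The Calvin cycle list had 2 risers, or 7.41%, and no faller among 27 genes, with a median of 0.17. The small chain of Rubisco (TR76467|c8_g3) had 19739, 2739, 6494 and 8099, and Rubisco activase 1 (TR86921|c9_g1), which keeps the enzyme open, 7713, 31.0, 5987 and 8364, with differences of 0.32 and 0.48. Phosphoglycerate kinase (TR81364|c4_g1) rose with 146, 61.7, 63.8 and 150.3, a difference of 1.22. Phosphoribulokinase (TR14297|c1_g2) had 288, 52.7, 151 and 291, a difference of 0.94, and passed 2-fold after median-ratio scaling with 1.08. These values at 48 h were close to or above those at 0 h, except for the small chain. Defining markers of a leaf were thus present at both times: the mesophyll list, Rubisco and its activase, summed to 12908 and 16869, with 1 of 8 genes higher, whereas the root and flower lists summed to 28.5 and 52.1 at 24 h and to 46.4 and 51.1 at 48 h. Of the stomata markers 1 of 41 rose, of the epidermis markers 2 of 31 fell and of the vascular markers 1 of 14 went each way. Their part in the other results was not tested.

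Nitrogen and iron genes had more risers than fallers by small counts, whereas over all measured genes 2.36% rose and 4.50% fell. Of 119 genes for nitrogen uptake and assimilation 9 rose, or 7.56%, and 3 fell, or 2.52%, with a median of -0.007. With a pseudocount of 0.1 the numbers were 14 and 12. Ferredoxin-dependent glutamate synthase (TR65942|c0_g1), which makes glutamate in the chloroplast, had 41.6, 8.45, 22.2 and 64.3, a difference of 1.49. The NRT1/PTR transporters 6.1 (TR49113|c0_g2) and 3.1 (TR84771|c0_g1), of a family that carries nitrate and peptides, had 9.39 and 66.7 at 24 h and 36.3 and 155 at 48 h. Both had their lowest level at 12 h. In the iron and metal list 5 of 53 genes rose and 2 fell, or 9.43% and 3.77%, the latter near the share of all genes. Ferritin-3 (TR79863|c4_g1), which stores iron in plastids, had 155, 243, 423 and 1019, a difference of 1.27.

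Most terpenoid lists are short, and they did not share one direction. Over all measured genes 2.36% rose and 4.50% fell. The plastid MEP pathway, which supplies the precursors of diterpenes, had no riser and 1 faller among 24 genes, and its sum was 6143 at 24 h and 6928 at 48 h. None of the 5 ent-copalyl diphosphate synthase genes, the class that begins labdane-type diterpene synthesis, passed 2-fold. They come from 2 assembled components and summed to 3515 at 24 h and 4453 at 48 h. Nearly all of that was the most abundant piece (TR66725|c19_g3), with 359, 834, 3374 and 4348, a difference of 0.37. In the cytosolic mevalonate pathway 2 of 19 genes rose and 1 fell, or 10.5% and 5.26%. All of them are HMG-CoA reductases, the control point of the pathway. The one that fell (TR59188|c3_g3) had 6.41, 198, 63.6 and 18.4, a difference of -1.74. The risers were faint: TR3750|c0_g1 went from 0.402 to 2.34 and TR86599|c0_g1 from 0.552 to 2.30. Of 20 prenyl diphosphate synthases, which join the precursors, 2 rose and 1 fell, or 10% and 5%. Farnesyl pyrophosphate synthase 1 (TR34983|c0_g1) went from 2.59 to 9.47 while number 2 (TR40024|c0_g1) went from 14.9 to 3.74. Sterol and triterpene genes rose in 4 of 36 cases, or 11.1%, with no faller and a median of -0.15, and Squalene monooxygenase (TR74157|c6_g11) among the risers had 40.2, 4.30, 12.7 and 32.5. Of 11 other terpene synthases 1 rose and 2 fell, or 9.09% and 18.2%. The fallers are named for synthases of volatile terpenes: Beta-caryophyllene synthase (TR48613|c1_g1) had 0.195, 382, 62.9 and 14, and nerolidol synthase 1 (TR24639|c0_g1) 0, 14.4, 8.44 and 1.74. A nerolidol synthase 2 gene (TR24462|c6_g2) had 724 and 538, under 2-fold. The P450 list, which holds many enzymes of specialised metabolism, had 15 risers and 6 fallers among 185 genes, or 8.11% and 3.24%.

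Regulators moved in both directions. Among 83 WRKY factors 5 rose and 7 fell, or 6.02% and 8.43%, against 2.36% and 4.50% of all genes. WRKY70, which in Arabidopsis stands between salicylate and jasmonate signalling, was the name of 6 genes, of which 4 fell and 1 rose: TR66746|c4_g1 had 48.3, 7.44, 37.8 and 6.63, whereas TR24069|c0_g1 had 2.48, 0.239, 4.22 and 12.5. WRKY transcription factor 18 (TR48264|c0_g1) had 2.93, 1.03, 15.5 and 1.25, a difference of -2.88. The Myb-related protein listed as MYB05_ANTMA (TR39094|c0_g1), an activator of phenylpropanoid genes in snapdragon flowers, had 0.10, 28.5, 33.1 and 3.20, a difference of -3.02. Of 122 MYB factors 7 rose and 9 fell, or 5.74% and 7.38%. Of 58 NAC factors 2 rose and 4 fell, or 3.45% and 6.90%. The NAC factors 2 (TR32385|c1_g1) and 78 (TR49201|c2_g1) had 102 and 62.9 at 24 h and 19 and 13.5 at 48 h, and both were highest at 24 h. A riser, NAC domain-containing protein 100 (TR68638|c0_g2), had 0, 3.66, 1.37 and 6.60.

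In the ethylene list 7 of 76 genes fell, or 9.21% against 4.50% of all genes, and none rose. Of the fallers, 3 are ACC oxidases, which make ethylene in its last step, 2 are pieces named ACC oxidase homolog 1 and 2 are named ETHYLENE INSENSITIVE 3, a transcription factor of the ethylene response, the last a grouping made after the values were seen. ACC oxidase 3 (TR16485|c1_g1) had 267, 347, 913 and 359, a difference of -1.35. With 1 gene per Swiss-Prot hit 3 of the ethylene list fell and none rose. The full list's summed level went from 12671 to 13352. The cytokinin list had 4 fallers, or 10.5%, and no riser among 38 genes, 3 of the fallers being phosphoribohydrolases that release active cytokinin. The one with the highest level (TR86957|c0_g1) had 6.29, 456, 101 and 41.4. Gibberellin genes gave 4 risers and 1 faller among 27, or 14.8% and 3.70%. The risers include enzymes of both synthesis and breakdown: Gibberellin 20 oxidase 2 (TR78431|c1_g1), which makes the hormone's precursors, had 27.8, 0.863, 0.658 and 6.78, and Gibberellin 2-beta-dioxygenase (TR47096|c0_g1), which inactivates it, had 0.0307, 0.413, 5.01 and 21.9.

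Stress proteins had more fallers than risers, as did all measured genes together, of which 4.50% fell and 2.36% rose. Glutathione transferases, which attach glutathione to reactive compounds, fell in 8 of 44 genes, or 18.2%, and rose in 1. The gene TR25134|c0_g3 had 71.7, 654, 391 and 136, a difference of -1.51. With 1 gene per Swiss-Prot hit 4 fell and none rose. Of 221 heat shock proteins and chaperones 14 fell, or 6.33%, near the 4.50% of all genes, and 1 rose. After median-ratio scaling 10 of the list fell and 1 rose, with a median of 0.01. The 18.2 kDa class I heat shock protein (TR45839|c0_g2) had 273, 66.7, 372 and 113, a difference of -1.71. The chaperones of the endoplasmic reticulum were different in count, with 2 risers and no faller among 38 genes. Both risers were named Calreticulin-3, a calcium-binding helper of glycoprotein folding: TR26193|c0_g1 had 7.66 and 26.1 and TR86187|c0_g1 had 11.1 and 32.0 at 24 h and 48 h.

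Lists of basic cell machinery gave few calls, where 2.36% of all measured genes rose and 4.50% fell. No proteasome gene out of 45 and no gene of the shikimate pathway out of 48 rose or fell. At those shares, lists of this size would hold few calls in any case. Of 307 cytosolic ribosomal protein genes 1 rose and 3 fell, or 0.326% and 0.977%. Their median was -0.26 against -0.10 over all genes, and their sum went from 19273 to 16249. Of 117 mitochondrial respiratory chain genes 3 rose, or 2.56%, near the share of all genes. In that list 1 gene fell, or 0.855%, and the median was -0.21.

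Several further genes were abundant or strongly changed, most of them outside the groups described so far. Dehydration-responsive protein RD22 (TR82091|c1_g2), a secreted protein that drought and abscisic acid induce in Arabidopsis, had 1339, 813, 1525 and 4124, a difference of 1.43. A thiol protease like aleurain (TR45833|c7_g1), a vacuolar enzyme, had 61.4, 1579.8, 1269.6 and 2842, a difference of 1.16. Proline dehydrogenase 1 (TR25407|c0_g1), the first enzyme of proline breakdown, had 2.49, 7.33, 14.9 and 68.6, a difference of 2.13. These 3 had their highest level at 48 h. S-adenosylmethionine synthase 1 (TR80382|c5_g2), which makes the cell's methyl donor, had 2812 at 24 h and 4125 at 48 h, under 2-fold. It was counted in the ethylene list.

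Among the fallers, Stem 28 kDa glycoprotein (TR68757|c2_g1), a vegetative storage protein of soybean, had 503, 12305, 3881 and 1667, a difference of -1.22. Arginine decarboxylase (TR17316|c1_g2), which begins putrescine synthesis, had 12.4, 51.2, 98.1 and 10.6, a difference of -3.09. A 2-oxoglutarate-dependent dioxygenase of the AOP class (TR18171|c0_g1) had 0.541, 1.79, 67.8 and 3.11, a difference of -4.07. The last 2 stood highest at 24 h, while the storage protein was highest at 12 h. Late embryogenesis abundant protein Lea5 (TR74169|c1_g7) had 3939 and 2262, and Adenylyl-sulfate kinase (TR64575|c2_g1), of sulfate activation, 2924 and 2018, both under 2-fold.

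Some single pieces were not borne out by their component. An asparaginase piece (TR44341|c3_g1) went from 31.6 to a listed 0, the most negative difference among the named genes, but the 4 pieces of that name in its component summed to 1331 and 1949.5, a difference of 0.55 in the other direction. A Carboxyvinyl-carboxyphosphonate phosphorylmutase piece (TR17285|c6_g1) had 1173 and 444, while its larger neighbour (TR17285|c6_g2) had 7272 and 6059, and summed the difference was -0.38. Over the whole table, 24 of the 1856 components with a changed gene held pieces called in both directions.

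Some of the most abundant genes had no database hit, and 4 of these are given here. TR44405|c11_g2 had 17306, 95796, 77773 and 53574 at the 4 times, and TR65391|c4_g1 9141, 33979, 7618 and 2804, the latter a fall with a difference of -1.44. TR26630|c9_g13 had 69.6, 3328, 3552 and 5111, and TR44291|c4_g6 3.95, 1371, 1558 and 2666. The first pair was highest at 12 h and the second pair at 48 h.

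The early response, 12 h against 0 h, shares no column with this step and can be set beside it. It is a shorter step and, by the labelled hours, may also differ in time of day, which was not tested. Over all genes 4413 were higher and 5214 lower at 12 h than at 0 h, 15% and 17.7% of those measured. Of the 694 genes that rose from 24 h to 48 h, 129 or 18.6% had been higher and 186 or 26.8% lower at 12 h. Of the 1324 that fell, 355 or 26.8% had been higher and 359 or 27.1% lower at 12 h. Seen from the other side, 8.04% of the genes higher at 12 h and 6.89% of those lower at 12 h fell in this step, while 2.92% and 3.57% of them rose. These shares describe the means, and whether they exceed the variation between plants was not tested.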

How the data were processed

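The deposited table gives 1 signal per assembled gene and time, a level that, from its values, the authors averaged over the 3 replicates: every value is a whole multiple of 0.001 divided by 3, within 0.05 of that step. Per the submitters' processing notes, CASAVA, FastQC 0.11.3, Trimmomatic 0.33 and RSEM 1.2.19 were used. The unit's name is not given in the sources used here, nor are assembler, build and depth. A limma test, planned only if values per library existed, could not be run, so the rule of size stands alone. Differences are log2(level + 1) at 48 h minus 24 h, over genes whose level reached 1 at any time, which understates changes of low genes. Swiss-Prot names came from the transcript search (19935 genes) or else the protein search (284). Genes were named by rank of change, of level and within each of 70 lists of name patterns. Members and lists were chosen with earlier results of these data known, patterns were corrected after a first match, and 1 list was added after values were seen. Python 3.11.15, pandas 2.3.3 and numpy 2.4.6 were used, and the steps were checked on simulated data. No sequences are shown.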

Additional observations from a re-analysis of the deposited data

How the results depend on the processing

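No paired analysis was possible because the table holds 1 mean per time, so leaving out a replicate and the replicate block were also not run. The counts of 694 higher and 1324 lower genes became 1648 and 3113 with a pseudocount of 0.1, 1895 and 3548 with 0.01, 273 and 744 among genes with a level of 10 or more at some time, 1867 and 3815 at 1.5-fold, and 87 and 170 at 4-fold. They stayed within 1.5 times under no filter, common-sum scaling (747 and 1206), median-ratio scaling, summed pieces and 1 gene per hit. Lists with at least 5 genes in one direction and 3 times as many as in the other numbered 2 mostly higher and 10 mostly lower. This rule takes no account of a list's size or of the larger share of fallers over all genes. The lower count became 18 and 21 with pseudocounts of 0.1 and 0.01. The higher count became 1 with either pseudocount, with summed pieces and with 1 gene per hit, 4 with common-sum scaling and 6 with median-ratio scaling. None of the lists called mostly higher or mostly lower turned round. Among the other lists, the cuticle one went from 10 higher and 7 lower to 12 and 17 with a pseudocount of 0.1. The 2 phosphate lists, the Aux/IAA and auxin transport, the expansin and the heat shock lists were mostly lower under all 8 list alternatives. Of the named genes, TR13440|c4_g1 came to -0.47 and TR44341|c3_g1 to 0.55 when pieces were summed. The depth behind a value is unknown, so genes at low levels carry the least certain differences.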
